A study of Mus musculus with 42 samples.

Results

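The liver was set against white adipose tissue (WAT) in the mice that had been given water, using 14 of the 42 arrays of the series, 7 from each tissue. Members were taken by their labels, and all 45037 probe sets other than the 64 Affymetrix controls were compared, of which 34945 name 1 gene alone and give 18193 genes. The animals were male ddY mice, an outbred stock. Water was given by feeding tube on 5 occasions, once a day, at 37.5 µL per gram of body weight, and food was withdrawn on the last day before the final dose. Liver, WAT and brown adipose tissue (BAT) were collected 4 h after that dose. The methods give 7 water mice, so liver and WAT appear to come from the same 7 animals, but whether a number marks the same mouse in both tissues is not stated. Other mice of the series were given the Vespa amino acid mixture (VAAM) in the same way, and they enter here only as an alternative set of animals. Liver pieces were kept in RNAlater, whereas WAT was frozen in liquid nitrogen. The fat depot is not given in the sources used here, and whole tissue was extracted, so each value is a mixture over the cells of the piece. Fewer cells of a type and less RNA per cell cannot be told apart in such samples. The WAT arrays of mice 1 and 2 stood apart from the other 5 in genes of the epididymis, as described at the end, and results that rest on them are given with and without them.

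The liver makes most of the proteins of blood plasma, packs lipid into lipoproteins for export, disposes of nitrogen as urea, makes glucose and bile acids, and detoxifies drugs. White adipocytes store triacylglycerol in a large droplet, release it as fatty acids and glycerol, and secrete hormones such as adiponectin and leptin. Fat tissue also holds vessels, fibroblasts, macrophages and a dense matrix of collagen, while the liver has its own resident macrophages (Kupffer cells), fenestrated sinusoidal endothelium and vitamin A-storing stellate cells.

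The deposited values are log2 signals made by the distribution free weighted method, which weights the probes of a set by how they vary over the arrays summarized together. Within a tissue the 7 arrays were almost identical. The median SD of a probe set was 1.02e-05 log2 units over the liver arrays and 1.29e-05 over the WAT arrays, whereas the median size of the liver minus WAT difference was 0.28. Array medians were 6.73 in every liver array and 6.91 in every WAT array. The SD was wider where the tissues differed more, with a median of 0.000334 among probe sets at least 3 log2 units apart and 9.95e-06 among those under 0.1, but remained far under the difference. For most genes each tissue thus carried in effect 1 value. Which arrays were summarized together is not given in the sources used here. Whether each tissue was summarized apart was not tested. Tissue, processing run and preservation cannot be told apart, and no p-value is given for any tissue difference. The limma test called 44964 of 45037 probe sets (99.8%) at an adjusted p under 0.05, which shows what a test does on such values.

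**Figure D1:**
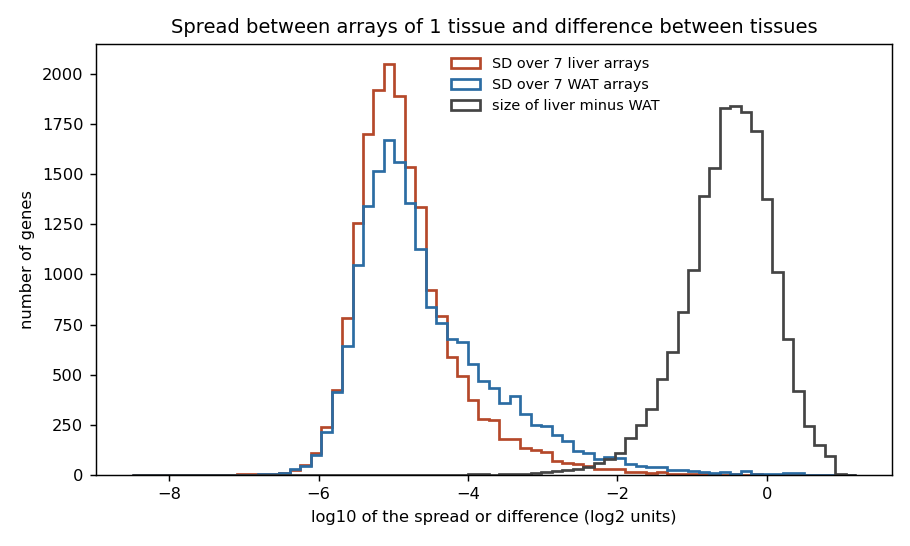
Number of genes (vertical axis) by the log10 of the SD over the 7 liver arrays, the SD over the 7 WAT arrays, and the size of the difference between the tissue means (horizontal axis, log2 units before the log10). The spread within either tissue lies several powers of 10 under the difference between the tissues for most genes, as the median SDs of 1.02e-05 and 1.29e-05 and the median difference of 0.28 show for probe sets.

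A gene was counted as higher in a tissue where the means differed by at least 1 log2 unit, that is 2-fold, and the arrays of the tissues did not overlap. The second condition added almost nothing, since the arrays of 18146 of the 18193 genes (99.7%) did not overlap. Each gene is represented by its probe set with the highest mean, and levels of different genes are not compared, because probes differ in brightness. The values are not corrected for background. Genes of photoreceptors, which neither tissue should express, read between 6.0 and 7.15 in liver and between 5.99 and 6.94 in WAT over 14 genes, and a level in this range is called background below. A difference against a tissue at background understates the true ratio. The 18 spiked hybridization controls, which should be equal, were all lower in liver, by a median difference of -0.19 and a range from -0.41 to -0.02. Ratios of the 3′ to the 5′ control probe sets, a sign of RNA integrity, were near in the tissues, with log2 differences of -0.13 in liver and -0.02 in WAT for Gapdh and of 1.09 and 0.91 for beta-actin.

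White fat had the wider set of higher genes and the liver the more extreme ones. By the size rule 1026 genes were higher in liver (5.64% of genes) and 2269 were higher in WAT (12.5%). Over probe sets the counts were 1640 (3.64%) and 4333 (9.62%). At 2 log2 units the counts were 543 and 591, at 3 they were 345 and 192, and at 5 they were 146 and 24. The balance at 1 log2 unit depended on the scaling. Liver held 31.1% of the calls on the deposited values and 46.1% after quantile normalization of the 14 arrays together, which gave 1340 and 1567 genes and moved the median of all probe sets from -0.12 to 0.01. Of the genes higher in liver, 445 (43.4%) had a WAT level at or under the highest photoreceptor gene. Of those higher in WAT, 989 (43.6%) had such a level in liver. Over all 18193 genes, 11109 read above that level in WAT and 9001 in liver. Levels at or under it were thus common among all genes as well.

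**Figure D2:**
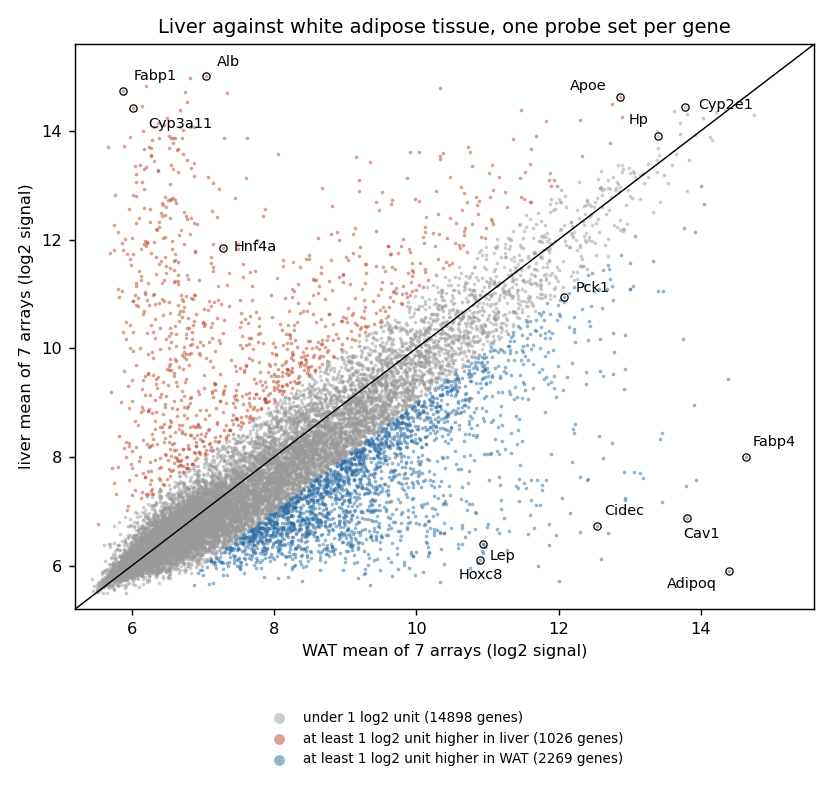
Mean log2 signal of each gene in liver (vertical axis) against WAT (horizontal axis), 7 arrays a tissue and 1 probe set a gene, with the line of equal signal. The genes farthest above the line, such as Fabp1, Alb and Cyp3a11, lie near background WAT signal, and Adipoq, Cav1 and Fabp4 lie farthest below it. Of the 1026 genes higher in liver 43.4% are at background in WAT, while 11109 of all 18193 genes lie above it there.

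The markers of the tissues matched the labels. Ahsg, the plasma glycoprotein fetuin-A made by hepatocytes, read 14.07 at the lowest, the median and the highest of the liver arrays and 6.31 at each of these in WAT, a difference of 7.76 log2 units. Adipoq, which encodes adiponectin, read 14.39 in the lowest, median and highest WAT array and 5.89 in those of liver, a difference of -8.5. Lep, which encodes leptin, read 10.93 at the lowest, median and highest of WAT and 6.39 at those of liver, a difference of -4.54. The arrays of the tissues were far from touching for these 3 genes. Leptin and adiponectin stood at background in liver, as fetuin-A did in WAT. The 5 measured hepatocyte markers were all higher in liver, by 7.28 (Cps1) to 7.97 (Apoa1), and the 5 measured adipocyte markers were all higher in WAT, from -3.42 for Lipe, hormone-sensitive lipase, to -8.5 for Adipoq.

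The largest measured difference was that of Fabp1, the fatty acid binding protein of hepatocyte cytosol. Its 7 liver arrays read 14.74 from lowest to highest and its 7 WAT arrays 5.87, so the groups were 8.87 log2 units apart. With WAT at background this value may understate the difference, and the order of such genes among themselves is not settled. Its counterpart in fat, Fabp4, is treated with its family below. After Fabp1 came Serpina1c, an alpha-1-antitrypsin gene, at 8.63, the drug-metabolizing cytochrome Cyp3a11 at 8.40, fibrinogen gamma (Fgg) at 8.32 and apolipoprotein A-II (Apoa2) at 8.16. Most of this top group is secreted into plasma. Among the next 10 were the protease inhibitors Mug1 (8.03) and Pzp (7.75), the apolipoproteins Apoa1 (7.97) and Apoc3 (7.77), albumin (Alb, 7.96), fibrinogen alpha (Fga, 7.92) and Ahsg itself. The other 3 were the steroid-metabolizing reductase Akr1c6 (7.84), Cyp3a25 (7.83) and the urinary pheromone carrier Mup3 (7.79). Serpina1c, Mug1, Mup3 and the Cyp3a genes belong to families of near copies whose transcripts the probes may share, so their values stand for the family as much as for the gene. In 14 of these 15 genes the WAT level was at background, the exception being Alb, at 7.04 against a highest photoreceptor gene of 6.94. Alb read 15.004 in liver.

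Several of these genes are neighbours on the chromosome. Fgg, Fga and Fgb, which encode the chains of fibrinogen, lie within 42.1 kb on chromosome 3 (GRCm38.p6) and differed by 8.32, 7.92 and 7.15. Apoa1, Apoc3, Apoa4 and Apoa5 lie within 43.3 kb on chromosome 9 and differed by 7.97, 7.77, 3.69 and 6.86. The cluster of Apoe, Apoc1, Apoc4 and Apoc2, 29.7 kb on chromosome 7, was less even, with differences of 1.75, 2.92, 6.54 and 4.79. Apoe and Apoc1 were strong in fat as well, at 12.87 and 11.47 in WAT.

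The marker of each tissue sits on the same stretch of chromosome 16. From Ahsg at chr16:22892015-22899451 to Adipoq at chr16:23146536-23157968 there are 266 kb, and 7 measured genes lie in this interval. In chromosomal order Ahsg, Fetub (fetuin-B), Hrg (histidine-rich glycoprotein) and Kng1 (kininogen) differed by 7.76, 5.41, 6.48 and 7.14, all higher in liver. Next came Eif4a2, a translation initiation factor, at -0.17, and Rfc4, a clamp loader of DNA replication, at -0.05, and then Adipoq at -8.5. So 4 genes strongly higher in liver, 2 with small differences and the gene most strongly higher in WAT followed each other along 266 kb.

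Promoters of 4 of these genes are shown to give the sequence around the start of the genes the comparison turns on, a pair from each tissue. Each is the RefSeq window (GRCm38.p6) from 250 bases before to 50 bases after the annotated start, 5′ to 3′ on the gene's own strand. Capitals mark 3 motifs searched on both strands: the core of the site of the hepatocyte factor HNF1 (GTTAAT or ATTAAC), the hexamer of nuclear receptors (AGGTCA or TGACCT) and the TATA box (TATAAA or TTTATA).
Alb, chr5:90460620-90460919, plus strand: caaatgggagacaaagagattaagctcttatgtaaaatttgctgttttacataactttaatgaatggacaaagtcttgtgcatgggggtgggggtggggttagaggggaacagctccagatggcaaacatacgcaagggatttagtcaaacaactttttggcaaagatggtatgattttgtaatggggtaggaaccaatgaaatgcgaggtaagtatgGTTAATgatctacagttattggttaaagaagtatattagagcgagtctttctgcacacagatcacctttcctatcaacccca
Fabp1, chr6:71199629-71199928, plus strand: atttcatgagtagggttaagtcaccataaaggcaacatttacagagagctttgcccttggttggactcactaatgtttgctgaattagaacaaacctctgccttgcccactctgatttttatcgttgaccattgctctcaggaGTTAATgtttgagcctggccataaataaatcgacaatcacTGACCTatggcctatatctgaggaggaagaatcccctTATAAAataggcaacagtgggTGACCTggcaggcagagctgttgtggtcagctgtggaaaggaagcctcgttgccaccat
Adipoq, chr16:23146286-23146585, plus strand: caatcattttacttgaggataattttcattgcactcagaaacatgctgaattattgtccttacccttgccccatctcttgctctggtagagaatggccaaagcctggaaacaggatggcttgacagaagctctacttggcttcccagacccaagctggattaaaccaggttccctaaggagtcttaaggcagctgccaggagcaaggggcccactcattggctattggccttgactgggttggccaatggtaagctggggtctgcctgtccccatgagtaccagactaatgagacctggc
Lep, chr6:29059971-29060270, plus strand: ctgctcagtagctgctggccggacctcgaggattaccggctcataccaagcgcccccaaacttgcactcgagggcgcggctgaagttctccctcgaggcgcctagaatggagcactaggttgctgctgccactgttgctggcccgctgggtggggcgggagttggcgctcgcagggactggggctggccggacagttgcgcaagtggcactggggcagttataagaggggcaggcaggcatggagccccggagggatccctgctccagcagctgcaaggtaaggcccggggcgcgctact
The Alb window holds 1 HNF1 core, at position -32 from the start. Fabp1 holds 1 HNF1 core at -107, a TATA box at -30 and 2 nuclear receptor hexamers, at -67 and -9. Neither the Adipoq nor the Lep window holds any of these letters, which says nothing of the factors themselves. The liver pair was shown because it holds the HNF1 core. Other liver promoters read do not hold it: Ahsg has none of the motifs, Apoa2 has a TATA box at -212 and Fgg a nuclear receptor hexamer at -201. The Cidec window also has none. Fabp4 and Hoxc8 are named only.

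Over the genes as groups, these letters were more frequent in the promoters of genes higher in liver. Of 285 promoters of genes at least 3 log2 units higher in liver, 50 (17.5%) held the HNF1 core, against 731 of 14452 measured promoters (5.06%) and 5 of 149 (3.36%) for genes as much higher in WAT. The nuclear receptor hexamer stood in 29.8%, 13.9% and 9.40% of these sets, and the TATA box in 20.4%, 9.87% and 14.1%. The base composition differed too, with a median GC content of 50.3% in the liver set, 58.7% over all and 59.3% in the WAT set, and motifs rich in A and T are met more often in sequence poor in GC. The part of base composition in these shares was not tested.

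The counts over lists that follow stand beside the shares over all genes, 5.64% higher in liver and 12.5% higher in WAT. Proteins made for export to plasma were higher in liver nearly without exception. All 18 measured coagulation genes were, with a median difference of 6.16 against -0.13 over all genes. The range ran from factor XI (F11, 3.99) and factor XII (F12, 4.01) to Fga and Fgg, with prothrombin (F2, 7.15) and antithrombin (Serpinc1, 7.31) near the top. Of 17 plasma carriers and protease inhibitors, 16 were higher in liver and the median was 5.61. The exception was haptoglobin (Hp), which binds free haemoglobin, at 13.90 in liver and 13.40 in WAT. Retinol-binding protein (Rbp4, 2.35) and orosomucoid (Orm1, 1.98) were also strong in WAT, at 11.83 and 11.16. In these 3 genes fat carried a level far above background, unlike transthyretin (Ttr, 7.37) or hemopexin (Hpx, 7.4).

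Complement was divided in a similar way. Of 14 genes 13 were higher in liver, with a median of 5.0. The highest values were those of C9 of the membrane attack complex (7.37), the inhibitor factor I (Cfi, 7.01), the mannose-binding lectin Mbl2 (6.76) and C8a (6.74), but other membrane attack genes were lower, with C8b at 4.78 and C5 (Hc) at 4.03. At the other end stood C2, a protease of the classical pathway, at 10.05 in liver and 10.00 in WAT, and factor B of the alternative pathway (Cfb) with 12.21 against 9.14. C6, a further membrane attack component, differed by 1.89.

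Lipoprotein genes were all higher in liver, 14 of 14, with a median of 6.70. Apob, the structural protein of very low density lipoprotein, differed by 7.48, and Mttp, which loads lipid onto it, by 3.41. Apoe had the smallest difference, 1.75.

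Among enzymes, the urea cycle was higher in liver at most of its measured steps. Cps1, the entry step, differed by 7.28, ornithine transcarbamylase (Otc) by 7.01 and arginase (Arg1) by 7.5. Asl differed by 3.50, the ornithine carrier Slc25a15 by 3.23 and Nags, which makes the activator of Cps1, by 3.01. In all 7 of 8 genes were higher in liver, with a median of 4.10. The eighth, Ass1, read 7.04 and 6.65, near background in both tissues, and since other probe sets for it name several genes this reading is uncertain. In amino acid breakdown 19 of 20 genes were higher in liver, with a median of 4.77. Tdo2, which opens the tryptophan pathway, and Hpd, of the tyrosine pathway, each differed by 7.29, and the glycine methyltransferase Gnmt by 7.21. Later enzymes of the tyrosine pathway were strong in fat as well, Fah at 10.67 in WAT (a difference of 2.19) and Gstz1 at 11.65 (0.57).

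Bile acid genes were higher in liver in 14 of 14 cases, with a median of 4.66. The uptake carriers Slco1b2 and Slc10a1 differed by 6.92 and 6.41, the bile acid ligase Slc27a5 by 6.48 and the rate-limiting hydroxylase Cyp7a1 by 3.20, each from background in WAT. Cytochromes of drug metabolism were higher in 11 of 13 cases, with a median of 6.74. Cyp2e1, which oxidizes ethanol, was the departure, at 14.44 in liver and 13.78 in WAT. Cyp2b10, an inducible gene, read 7.33 and 6.75. In BAT Cyp2e1 read 9.66.

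Glucose production was mixed over the 7 of 10 listed genes that were measured. Glucose 6-phosphatase (G6pc) was not among the 7. Fructose bisphosphatase (Fbp1) differed by 6.25, tyrosine aminotransferase (Tat) by 4.10, Got1 by 3.23 and the glucose 6-phosphate carrier Slc37a4 by 3.19. Pck1, which makes phosphoenolpyruvate for glucose in liver and for glycerol in fat, was the reverse. It read 10.94 in liver and 12.08 in WAT, a difference of -1.14 that was -0.98 after centring on the hybridization controls and -0.51 as the mean of its probe sets. Pyruvate carboxylase (Pcx, -0.57) and alanine aminotransferase (Gpt, 0.60) were under the size rule, so that 4 of 7 genes were higher in liver and 1 in WAT. In ketone body synthesis, where 2 of 4 listed genes were measured, Bdh1 differed by 5.17 and Acat1 by 0.78.

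The transcription factors of the hepatocyte were higher in liver in 13 of 13 cases, of which 11 were at background in WAT. The median was 3.09, from Nr0b2 (SHP, 1.48) and the xenobiotic receptor Nr1i2 (2.02) to Creb3l3 (4.09) and Hnf4a (4.57). Hnf4a, a nuclear receptor that hepatocyte genes depend on, read 11.85 from lowest to highest in liver and 7.27, 7.28 and 7.29 at the lowest, median and highest of WAT. Hormones and growth factors of the liver were less uniform, with 7 of 11 higher in liver and a median of 1.70. Hepcidin (Hamp), which controls iron, differed by 5.78 and Lect2 by 4.64. Igf1 differed by 1.68, with 11.46 in WAT, and the growth hormone receptor (Ghr) was at 12.75 and 13.15.

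In the other direction the top 15 genes combined products of adipocytes with those of vessels and matrix. After Adipoq came Cav1, the coat protein of caveolae, at 6.87 in liver and 13.81 in WAT (-6.94). Fabp4, the fatty acid binding protein of adipocytes, read 8.00 and 14.63 (-6.64). Next were the amine oxidase Aoc3 (-6.49), the galectin Lgals1 (-6.35), the actin-severing protein Gsn (-6.34), resistin (Retn, -6.29) and Rgcc (-6.28). The list went on with Gnai1, an inhibitory G protein (-6.09), the droplet fusion protein Cidec (-5.81), Ifi27l2a (-5.72), the protein kinase A subunit Prkar2b (-5.71), perilipin 4 (Plin4, -5.69), the matrix proteoglycan Ogn (-5.68) and the tubulin Tuba1a (-5.57). In BAT, Adipoq, Cav1 and Fabp4 stood at 14.04, 13.26 and 14.58, close to their WAT levels, whereas Retn was at 9.36 against 13.45 in WAT and Lep at 7.14 against 10.93. BAT and WAT were not tested against each other.

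**Figure D3:**
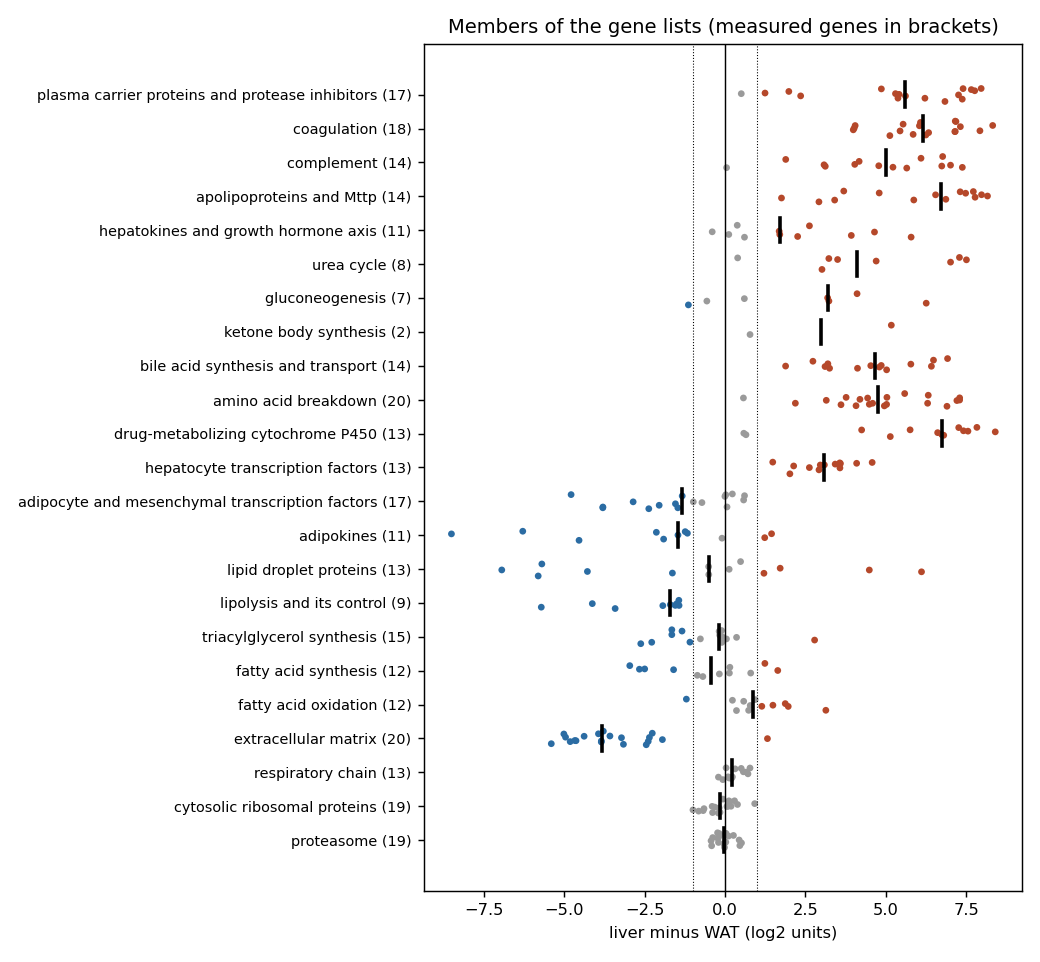
Liver minus WAT difference (horizontal axis, log2 units) of each measured member of 23 gene lists, coloured by whether it was at least 1 log2 unit higher in liver (red), in WAT (blue) or neither (grey), with the list median as a black bar and dotted lines at 1 log2 unit. Lists of liver secretion and metabolism lie to the right with medians up to 6.74, the extracellular matrix lies to the left at -3.81, lipolysis lies to the left of 0 throughout, and the synthesis and oxidation of fatty acids, respiratory chain, ribosome and proteasome straddle 0.

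Of 11 adipokines, 8 were higher in WAT and 2 in liver, with a median of -1.46, or -0.99 with the mean of all probe sets. Retn and Lep followed Adipoq, and then came the neuregulin Nrg4 (-2.13), lipocalin 2 (Lcn2, -1.91) and the lipase inhibitor Angptl4 (-1.46). Lcn2 was among the genes that varied between mice, and its values are given below. The genes against the list were angiotensinogen (Agt), with 11.41 in liver and 9.96 in WAT, and chemerin (Rarres2), with 12.21 and 10.98. As the mean of all its probe sets Rarres2 differed by 0.62.

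Among transcription factors of adipocytes and mesenchyme, 9 of 17 were higher in WAT, none in liver, and the median was -1.33, or -0.83 with the mean of all probe sets. Pparg, the receptor that drives adipocyte differentiation, read 6.68 in liver, at background, and 10.48 in WAT (-3.80). Ebf1 differed by -3.80 as well. The CCAAT factors that share this role were divided. Cebpd was higher in WAT (7.57 and 9.12, a difference of -1.54), whereas Cebpa (10.95 and 10.35) and Cebpb (10.82 and 10.24) were under the size rule. The largest difference was that of the body-position gene Hoxc8, at 6.11 and 10.90 (-4.78). Its neighbours on chromosome 15, Hoxc9 (-0.72), Hoxc6 (-0.52) and Hoxc10 (6.37 and 6.38), were under the size rule. Hoxc8 read 6.13 in BAT.

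Lipid droplet proteins went both ways, 4 higher in liver and 5 in WAT of 13. Cav1, Cidec, Plin4 and the caveolar Cavin1 (-4.28) were the fat members, and the seipin gene Bscl2 differed by -1.64. The liver members were Hsd17b13 (6.11), a droplet enzyme of hepatocytes, Cideb (4.48), Plin5 (1.71) and Plin2 (1.21). Lipolysis was the most even of the fat lists, with 9 of 9 genes higher in WAT and a median of -1.70. Adipose triglyceride lipase (Pnpla2) differed by -1.93, its activator Abhd5 by -1.50 and its inhibitor G0s2 by -1.55, and hormone-sensitive lipase (Lipe) by -3.42. The lipase that opens the sequence, its activator and its inhibitor therefore differed by similar amounts. Pnpla3, a relative of Pnpla2, differed by -4.13.

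Synthesis of triacylglycerol and of fatty acids was mixed. Of 15 triacylglycerol genes 6 were higher in WAT and 1 in liver, with a median of -0.18. Over all genes 12.5% were higher in WAT and 5.64% in liver, so the 1 in liver is near the general share. Of the enzymes of the last step, Dgat1 differed by -2.28 whereas Dgat2 read 12.26 and 12.36. Gpam, the first acylation step, read 11.27 and 11.36. Mogat1 differed by -2.62, and Lpin2 was the liver member at 2.78. Of 12 fatty acid synthesis genes, 4 were higher in WAT and 2 in liver. Fatty acid synthase (Fasn) read 9.07 in liver and 11.57 in WAT, Acaca differed by -2.66 and Scd2 by -2.96. The liver members were the elongase Elovl5 (1.64) and the glucose-sensing factor Mlxipl (ChREBP, 1.24). Fatty acid oxidation leaned to liver, with 5 of 12 higher there and a median of 0.86 that passed 1 under quantile normalization (1.05) and control centring (1.02). Ehhadh of the peroxisome (3.13) and Cpt1a, the entry step of mitochondria (1.87), were among them. Acaa1a was higher in WAT (-1.20), a value that was -0.85 after quantile normalization and -0.27 as the mean of its probe sets.

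Extracellular matrix genes formed the largest block of fat tissue, with 19 of 20 higher in WAT and a median of -3.81. Dermatopontin (Dpt) differed by -5.40, the fibrillar collagen chains Col1a2 and Col3a1 by -5.01 and -4.96, and the basement membrane chain Col4a1 by -4.81. The exception was fibronectin (Fn1), which hepatocytes secrete into plasma, at 12.59 in liver and 11.28 in WAT. As the mean of its probe sets Fn1 differed by 0.97. Smooth muscle and fibroblast markers were higher in WAT with this list, as given below, and their part in it was not tested.

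Lists of genes that every cell uses gave a scale for these differences. None of 13 respiratory chain, 19 ribosomal protein and 19 proteasome genes reached 1 log2 unit. The medians were 0.23, -0.16 and -0.03, and the widest single values were -1.0 for Rps25 and 0.92 for Rpl37. Under quantile normalization Rpl37 differed by 1.23 and Rps20 by -1.14. Not every widely used gene stayed under 1 log2 unit. The Affymetrix control sets of Gapdh differed by 1.35 to 1.52 and those of 18S ribosomal RNA by 1.53 to 2.33. Those of beta-actin differed by -1.36 to -1.55. In BAT the respiratory chain gene Cox4i1 was at 14.17 against 13.38 in liver and 13.26 in WAT.

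Relatives with the same activity were often divided between the tissues. Of 22 pairs, the first a gene listed here for liver and the second its relative, 16 had measured genes for each side. In 9 pairs the first was higher in liver and the second in WAT, beside the background rates of 5.64% and 12.5% for a gene. The pairs were chosen for an expected division, so this count describes them and is no test. The widest pair was Fabp1 and Fabp4, 15.5 log2 units apart in their differences. Cideb and Cidec were 10.3 apart, the fatty acid transport proteins Slc27a5 and Slc27a1 were 8.92 apart, and the glucose transporters Slc2a2 (GLUT2) and Slc2a4 (GLUT4) were 8.69 apart. Slc2a4, the insulin-responsive transporter, read 7.09 in liver and 9.55 in WAT, and Slc2a2 read 12.30 and 6.06. The channels that pass glycerol were divided likewise, Aqp9 of liver at 11.59 and 6.65 and Aqp7 of fat at 6.45 and 8.37. So were the glycogen synthases Gys2 (3.10) and Gys1 (-1.51), the pyruvate kinases Pklr (1.36) and Pkm (-1.88), the cationic amino acid transporters Slc7a2 (2.83) and Slc7a1 (-1.58, or -0.99 as the mean of its probe sets) and the lipins Lpin2 (2.78) and Lpin1 (-1.65).

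In the other 7 pairs the division was on one side or absent. The first listed genes of phosphofructokinase (Pfkl, -0.39), glycogen phosphorylase (Pygl), stearoyl-CoA desaturase (Scd1, 0.14) and lactate dehydrogenase (Ldha, -0.23) were near equal. Pfkl read 7.1998 in liver and 7.587 in WAT, not far above the highest photoreceptor genes (7.15 and 6.94), so its near equality says little. The relatives Pfkp (-2.35, or -0.91 as the mean of its probe sets), Pygb (-3.16), Scd2 (-2.96) and Ldhb (-2.75) were higher in WAT. Scd1 read 14.34 in liver and 14.21 in WAT, and Ldha 12.298 and 12.52. For Pygl, Scd1 and Ldha, fat thus carried the first listed gene and its relative far above background. Pygl read 11.47 in liver and 11.48 in WAT. Fbp2 (-0.39) and Slc25a12 (0.01) were near equal while Fbp1 and Slc25a13 (4.70) were higher in liver. Fbp2 was at background in liver, at 6.86, and read 7.25 in WAT. Of the acetyl-CoA carboxylases, the first listed, Acaca, was higher in WAT, and Acacb read 8.46 and 8.31. No second member was higher in liver.

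**Figure D4:**
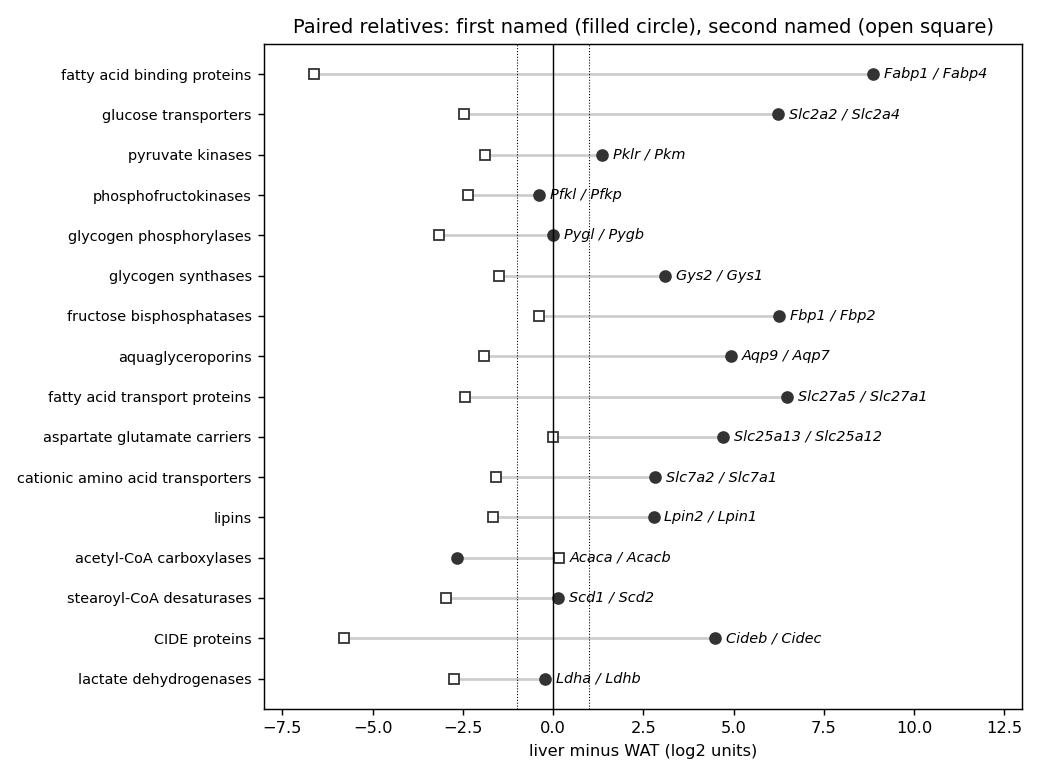
Liver minus WAT difference (horizontal axis, log2 units) of both genes of the 16 measured pairs. The gene listed first, for liver, is a filled circle and its relative an open square, with dotted lines at 1 log2 unit. Fabp1 and Fabp4 lie 15.5 log2 units apart, 9 pairs reach past both dotted lines, and Acaca and Acacb are in the reverse order.

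Marker genes of other cells separated some resident types of each organ, but not the bile duct cells of liver, as given below. Of 5 Kupffer cell markers 3 were higher in liver, Cd5l by 3.96, Vsig4 by 3.71 and Clec4f by 2.63, while Timd4 and Marco were at background in both tissues or just above it. General macrophage genes went the other way in 3 of 7, namely lysozyme (Lyz2, -2.86), the growth factor receptor Csf1r (-1.36, or -0.89 as the mean of its probe sets) and the endotoxin co-receptor Cd14 (-1.22). Adgre1, a general macrophage antigen, read 8.21 and 8.53, under the size rule. Markers of sinusoidal endothelium were higher in liver in 5 of 7, led by the lectin Clec4g (4.28) and the scavenger receptor Stab2 (2.35), and Lyve1, which lymphatic endothelium shares, was higher in WAT (-1.81). Endothelial genes in general were higher in WAT in 4 of 7, led by the tight junction gene Cldn5 (-2.81), with a list median of -1.15 that was -0.82 under quantile normalization. Of 6 stellate cell markers 3 were higher in liver, the collectin Colec11 (2.68), Reln (2.29) and Lrat, which esterifies retinol (1.88).

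Fat carried the markers of its stroma and surface. The fibroblast and precursor genes Cd34 (-3.71), Pdgfra (-3.23) and Pi16 (-1.87) were higher in WAT, and Dpp4, which hepatocytes also carry, was higher in liver (1.56, or 0.82 as the mean of its probe sets). Smooth muscle actin (Acta2, -3.85), Tagln (-2.14) and Myh11 (-2.13) were higher in WAT. Of 6 mesothelial markers, genes of the sheet that covers visceral organs, 4 were higher in WAT, from Upk3b at -3.00 and Upk1b at -1.55 to Lrrn4 at -1.40. Of 4 bile duct cell markers, 0 were higher in liver and 0 were above background there. All 4 were above background in WAT, and the median was -0.89. The keratin Krt19 of this list, also made by mesothelium, was the 1 that reached the size rule, at -1.71. Lymphocyte genes did not reach the size rule, 0 of 5, and lay between 6.34 and 7.47 in the tissues. Of 7 brown adipocyte markers 1, Cox8b, was higher in WAT (-1.18, or -0.92 after quantile normalization), and 2 were above background there. Cox8b read 6.62 in liver, 7.798 in WAT and 14.08 in BAT. Ucp1, the uncoupling protein of brown fat, read 6.39 in liver, 6.36 in WAT and 14.22 in BAT, and Cidea 6.32, 6.83 and 14.05. Not every member set BAT apart on these arrays. Dio2 read 7.03 in liver, 6.81 in WAT and 6.998 in BAT, and Prdm16 read 6.54, 7.1539 and 7.1499. The myosin light chain Myl1 was the 1 skeletal muscle gene of 6 that was higher in WAT (-2.49). Alas2, the haem synthesis enzyme of red cell precursors, was higher in liver (3.71). The haemoglobin gene Hba-a1 read 6.66 and 6.28 at the probe set used, both at background. Probe sets that name several genes entered no gene value, and Hbb-b1 was not measured. These readings therefore do not show that haemoglobin transcripts were absent.

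Against this even background of arrays, 39 genes varied between the WAT mice with an SD over 0.5 log2 units, and 4 varied so among the liver mice. In 37 of the 39 the WAT arrays of mice 1 and 2 were the highest. Many of them are known as genes of the epididymis, the duct in which sperm mature. The lipocalin Lcn8 read 13.39 in mouse 1, 12.60 in mouse 2, and 8.76, 8.14, 8.44, 8.27 and 8.01 in mice 3 to 7, against 6.42 in every liver array. Adam7, a membrane protease-like protein of this duct, read 14.16, 12.17, 7.78, 7.21, 7.46, 7.49 and 7.35 in that order. The first 2 mice were thus far above the others, and the others still above the liver. The mean over 8 epididymis markers was 11.43 in mouse 1, 10.18 in mouse 2, and between 7.03 and 7.37 in mice 3 to 7. The list median was -2.43 with all mice and -0.95 without mice 1 and 2, and the members higher in WAT went from 5 to 4 of 8.

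**Figure D5:**
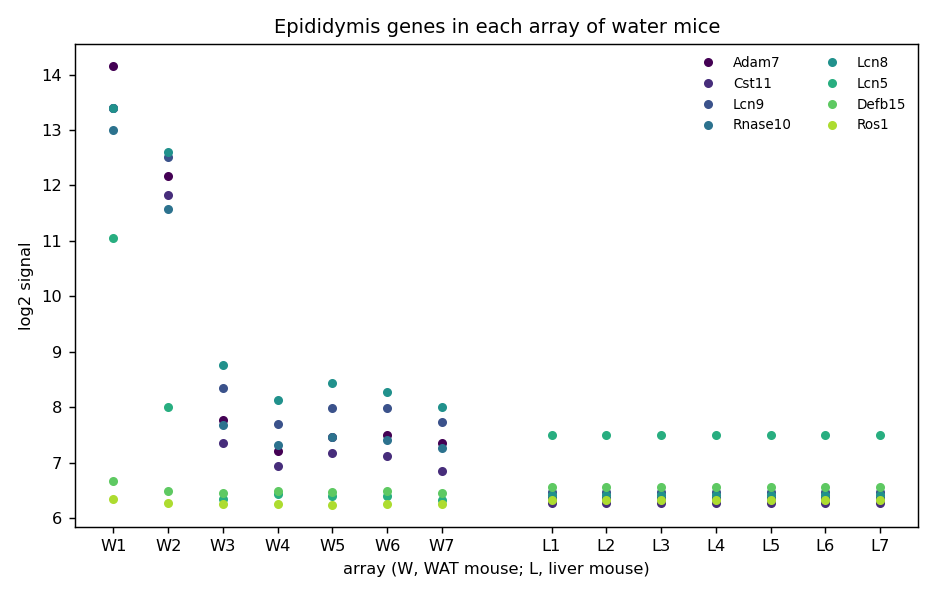
Log2 signal (vertical axis) of the 8 measured epididymis genes in each of the 7 WAT (W) and 7 liver (L) arrays of water mice (horizontal axis), each point 1 array. Mice 1 and 2 stand far above the other WAT mice for 5 of the genes and for Lcn5, with Lcn8 at 13.39 and 12.60, while Defb15 and Ros1 stay near the liver level.

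These 2 mice were also the highest in many genes outside that list, among them Cldn2, Rnf128 and Cdh1. C4bp, a complement inhibitor of liver, read 10.33 and 8.82 in WAT mice 1 and 2 and between 6.15 and 6.42 in the others, against 12.42 in liver. Its difference was 5.22 with all mice and 6.17 without these mice. Lcn5, a member of the list, read 11.06 and 8.00 in these mice against 7.49 in liver. Its arrays overlapped, and without these mice it was higher in liver by 1.11. In the VAAM mice its difference was -5.23, that is higher in WAT. The secreted siderophore binder Lcn2 also read 11.27 and 10.68 in mice 1 and 2 and between 7.67 and 9.02 in the others. The difference of Lcn2 was -1.91 with all mice and -1.19 without mice 1 and 2. The gene counts barely changed, from 1026 and 2269 with all mice to 1028 and 2258 without them. Tmem45b was the clearest gene that did not follow these mice, with 7.39 and 7.44 in mice 4 and 5 and between 10.94 and 11.52 in the other 5, against 6.17 in liver. Among liver mice the fatty acid hydroxylase Cyp4a14 ran from 6.84 to 9.15 and Gstp3 from 8.48 to 10.26, and each was higher than its WAT level in every mouse.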

How the data were processed

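Total RNA of liver, WAT and BAT was hybridized by the authors to Affymetrix Mouse Genome arrays. The deposited log2 values were made by the authors with the distribution free weighted method in R (R 2.7.2 in the submitters' processing notes). The base of the log was inferred from the range of the values, and this method subtracts no background. Arrays have no depth, so their number, 7 a tissue, limits the precision.

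The means of the 7 liver and the 7 WAT arrays of water mice were subtracted. Genes were counted at 1 log2 unit with no overlap of the arrays, and no p-value is given for a tissue difference. Limma 3.58.1 (R 4.3.3, lmFit and eBayes, Benjamini-Hochberg) was run to show what a test does. The calls and limma were also run on simulated data with the real SDs, shifts far above most of them and no run effect. Recovery was nearly fixed by that setting, so the run checks the code and not the tissue differences. Symbols come from the platform annotation, updated by gene ID through RefSeq (GRCm38.p6), and 404 of 454 listed genes were matched. Of 45037 probe sets 932 name several genes and 9160 none, and these entered no gene value. Probe sets of 8 of 9010 genes with several were called in opposite directions, and none of these is named in the text.

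Named genes were the 15 largest differences in each direction, Ahsg, Adipoq and Lep, the 2 highest and 2 lowest genes of each list and those against it, and all measured pairs. Other members are given as examples of their list. The genes that varied between mice, the chromosomal neighbours and C2, Cfb and similar examples were chosen after their values were seen. The lists, pairs and members were chosen with earlier results of these data known. Replicates within a tissue are separate mice, and the tissues share the 7 animals. Other scalings, probe set rules, sizes, filters, the VAAM mice and the removal of arrays were tried as alternatives. CAAM mice, a further group of the study, are not analysed here. Over the 198 named genes the SD within a tissue passed 0.1 log2 units in 0 liver and 3 WAT cases, Lcn5, Lcn8 and Lcn9.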

Additional observations from a re-analysis of the deposited data

Results flagged for a closer look

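In each tissue, the highest or lowest array of a named gene was compared with its nearest neighbour, as a share of the range over the 7 arrays (Dixon's ratio, set against its critical value). Of 396 such groups 24 stood out (6.06%), and chance alone marks about 1 in 20. The ranges were small for 22 of them, from 1.38e-05 to 0.0153 log2 units, so these marks concern the closeness of the other 6 arrays more than a wide departure.

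The wide ranges were those of the epididymis genes in WAT. Lcn5 had a ratio of 0.647 over a range of 4.73 log2 units and Defb15 0.795 over 0.221, with mouse 1 the highest in each. Mouse 1 was also the extreme WAT array for Fga (0.891, range 0.0153), Pzp (0.829), Ghr (0.591) and Cyp2e1 (0.594). The remaining WAT marks were Reln at 0.632 (mouse 2), Uqcrc2 at 0.606 and Psmb7 at 0.668 (mouse 3), and Scd1 at 0.642 (mouse 7).

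In liver, array 6 was the extreme for Ass1 (0.642), Hsd3b7 (0.628), Nr1i2 (0.605), Elovl5 (0.731), Csf1r (0.615) and Vsig4 (0.591). Array 3 was the extreme for Lect2 (0.627), Timd4 (0.577) and Ldha (0.634), and array 5 for Gsn (0.690) and Dpt (0.575). Single marks fell on array 1 for Agt (0.573), array 2 for Colec11 (0.693) and array 4 for Muc16 (0.605).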

How the results depend on the processing

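The values below are counts of genes higher in liver and in WAT, in that order, or the median difference. With 2 log2 units the counts were 543 and 591, over all probe sets 1640 and 4333, and with the mean of all probe sets of a gene 875 and 1491. Ribosomal centring gave 1068 and 2105, control centring 1178 and 1809, and the VAAM mice 1025 and 2276. The median difference over probe sets, -0.12, was 0.0109 under quantile normalization, 0.0445 with control centring and -0.0595 with ribosomal centring. Leaving out each array gave 1025 to 1027 and 2262 to 2270 genes. Without WAT mice 1 and 2, an alternative chosen after seeing the data, the median difference was -0.11. Lists with a median of at least 1 in size numbered 26, and 23 to 27 under the alternatives. Named genes that passed the size rule numbered 132, and 124 to 133. The 9 divided pairs were 8 with the mean of probe sets and 9 otherwise. No named gene or list at 1 log2 unit or more changed sign under an alternative.

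Limma called 44964 probe sets, 44964 with the replicate number as a block and 22496 of the 22518 above the median level. Leaving out each array gave 44958 to 44981. The tissues come from the same 7 mice, but no source says that a number marks the same mouse in both. For that reason the numbers were not taken as pairs. Liver and WAT arrays of the same number had correlations of their deviations between -0.02 and 0.11, with 1 of 7 pairs over 0.1. In 4 of 7 cases the liver array was closest to the WAT array of its own number, where chance gives about 1. Whether the numbers mark the same mice was not settled by these values.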
